A study of Mus musculus with 4 samples.

Results

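The cells described here are bone cells rich in the RNAs of Mepe and Dmp1, which mark bone cells as they become osteocytes. They were chosen by their own counts: among barcodes with 1000 UMIs (unique molecular identifiers, one per captured RNA molecule) or more, 500 detected genes or more and no more than 10% of UMIs from mitochondrial genes, a Mepe/Dmp1-high cell had at least 2000 CPM (UMIs of a gene scaled to the same total in every cell or sum) of both genes together, at least 3 UMIs of each, no UMI of the endothelial genes Cdh5 and Pecam1, and less than 2000 CPM of the stromal gene Cxcl12. The rule took 409 of 16658 cells, with 222 from mutant library 1, 177 from mutant library 2, 8 from control library 1 and 2 from control library 2. The study profiled live cells without the blood-cell surface proteins CD45 and Ter119, sorted at postnatal day 12 from the limb marrow of mice of strain C57BL/6, by droplet RNA sequencing from the 3' ends of transcripts. Mutants were Prx1-cre;Mettl3-fl/fl, in which Cre driven in limb mesenchyme removes the floxed part of Mettl3, the catalytic subunit of the enzyme that writes the m6A mark on RNA. The genotype of mutant 2 is given only as mutant. Neither control label states alleles. For the sort, 3 mutant and 3 control mice are named, without saying which mice went into which of the 4 libraries, so the spread between libraries may be partly technical.

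Osteocytes are osteoblasts that have become buried in the bone matrix they made, where they extend dendrites, sense load and send signals to the bone surface. Mepe, Dmp1, Ibsp and Spp1 encode secreted acidic phosphoproteins of the SIBLING family, which bind mineral and cells and regulate mineral growth. Phex, a membrane peptidase, acts with Dmp1 to hold down the phosphate hormone Fgf23, and Sost encodes sclerostin, an inhibitor of Wnt signalling released by mature osteocytes.

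The genes of 4 SIBLING members lie on mouse chromosome 5, and their promoters are shown because 2 of them chose the cells and the other 2 behaved differently from each other in these cells. The sequences are RefSeq's for GRCm38.p6, each on the plus strand from 250 bases before to 50 bases after the annotated start, and capitals mark the core of the RUNX motif. Where RefSeq lists 2 promoters (Dmp1, Spp1), the first is shown.
Mepe promoter: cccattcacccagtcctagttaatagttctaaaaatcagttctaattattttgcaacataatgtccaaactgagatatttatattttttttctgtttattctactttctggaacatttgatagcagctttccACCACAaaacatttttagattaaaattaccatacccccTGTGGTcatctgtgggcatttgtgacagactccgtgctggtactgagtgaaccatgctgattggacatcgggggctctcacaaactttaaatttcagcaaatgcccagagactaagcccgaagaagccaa
Dmp1 promoter: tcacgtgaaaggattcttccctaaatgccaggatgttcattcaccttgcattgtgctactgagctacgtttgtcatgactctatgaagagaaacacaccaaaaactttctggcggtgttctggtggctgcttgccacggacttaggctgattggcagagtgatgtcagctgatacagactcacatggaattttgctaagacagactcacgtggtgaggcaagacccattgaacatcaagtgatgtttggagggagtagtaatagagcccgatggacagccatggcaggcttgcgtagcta
Spp1 promoter: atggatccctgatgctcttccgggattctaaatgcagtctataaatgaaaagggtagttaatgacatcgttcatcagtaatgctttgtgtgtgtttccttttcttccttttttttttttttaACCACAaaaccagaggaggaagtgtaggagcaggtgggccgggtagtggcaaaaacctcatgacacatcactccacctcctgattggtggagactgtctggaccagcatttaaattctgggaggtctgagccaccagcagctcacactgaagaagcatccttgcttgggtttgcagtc
Ibsp promoter: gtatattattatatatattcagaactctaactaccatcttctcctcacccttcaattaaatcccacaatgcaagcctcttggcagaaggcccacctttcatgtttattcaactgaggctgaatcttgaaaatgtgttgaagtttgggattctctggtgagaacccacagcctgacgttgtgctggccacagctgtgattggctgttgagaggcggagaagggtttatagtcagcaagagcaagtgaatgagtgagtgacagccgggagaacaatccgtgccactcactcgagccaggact
Mepe at chr5:104325079-104325378 held the RUNX core 2 times, beginning 118 and 80 bases upstream of the start, and Spp1 at chr5:104434861-104435160 held it 1 time, 128 bases upstream. Neither Dmp1 at chr5:104197325-104197624 nor Ibsp at chr5:104299037-104299336 held it in this window. The search used TGTGGT on both strands, so that ACCACA also counts, and 16.9% of 27025 promoters of this length held at least 1 match. The AP-1 motif TGANTCA was in none of the 4 promoters shown, against 7.93% of all promoters. These matches describe letters only.

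A look at the whole series comes before the results. The libraries held 47390414 UMIs in mutant 1, 81890483 in mutant 2, 116863081 in control 1 and 114143361 in control 2, and kept 2628, 4587, 5808 and 3635 cells. The deposited list of mutant 1 stops at 501 UMIs, so its free RNA could not be measured, while in mutant 2 the free RNA held 515 CPM Mepe and 549 CPM Dmp1. Pairs of libraries shared 2 to 10 barcodes. Mutant 2 also held more blood-cell RNA: 31 of its 177 Mepe/Dmp1-high cells carried at least 3 UMIs of the neutrophil granule genes Elane and Mpo, or over 5% of their UMIs in S100a8 and S100a9 or in globins. None of the Mepe/Dmp1-high cells of the other 3 libraries did. The 10 neutrophil markers summed to 6343 CPM in the Mepe/Dmp1-high cells of mutant 2, 106 in mutant 1, 15.6 in control 1 and 168 in control 2.

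Most of the cells chosen by Mepe and Dmp1 also carried Phex, and few carried Sost. Phex had a UMI in 196 of 222 cells of mutant 1, 147 of 177 of mutant 2, 7 of 8 of control 1 and both cells of control 2, and every one of the 409 cells had at least 3 Spp1 UMIs. None held Acan, the cartilage proteoglycan. Fgf23 had 0 UMIs in all of them. The level rule alone took 326, 321, 20 and 4 cells in mutant 1, mutant 2, control 1 and control 2, and asking for 3 UMIs of both genes left 223, 206, 8 and 2. The endothelial condition then removed 29 cells of mutant 2, which had a median of 2655 UMIs. The weakest cells kept had 2023 CPM of Mepe plus Dmp1 in mutant 1 and 2012 in mutant 2, and the strongest just outside had 1936 and 1938. In control 1 the weakest cell kept had 10759 CPM and the strongest outside 1702, and in control 2 they had 9301 and 0.

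The Mepe/Dmp1-high cells were then described against other bone cells of the same library. These passed the same filters and had at least 3 UMIs and 1000 CPM of the collagen gene Col1a1, at least 3 UMIs of the osteoblast genes Sp7, Ibsp and Alpl together, and no Acan. They were split at 2000 CPM of Bglap plus Bglap2, the osteocalcin genes, into 1097 Bglap-high cells (438 in mutant 1, 524 in mutant 2, 113 in control 1, 22 in control 2) and 2026 Bglap-low cells (1200, 650, 163 and 13 in the same order). The genes of these rules are no findings. The Mepe/Dmp1-high cells were not asked to carry osteoblast genes, and 95 of 222 in mutant 1 (42.8%), 101 of 177 in mutant 2 (57.1%), 6 of 8 in control 1 (75%) and neither cell of control 2 met the bone rule. Since the cells were selected on measured values, the differences below are a description with no test. A gene was counted as higher or lower where its summed CPM differed at least 2-fold the same way in both mutant libraries, with at least 20 UMIs in the higher set. The controls, with 10 such cells, were left out of that count, which therefore describes mutant cells. Control values are given beside it for some genes, and where none are given the difference is described for the mutants only. Of 8796 genes measured against Bglap-high cells, 825 (9.38%) were higher and 583 (6.63%) were lower. Of 10017 genes measured against Bglap-low cells, 582 (5.81%) were higher and 1302 (13%) were lower. The Mepe/Dmp1-high cells were shallower, with median UMIs of 8488 in mutant 1, 9134 in mutant 2, 8746 in control 1 and 5969 in control 2, against 24166, 10980, 24705 and 25566 in Bglap-high cells, and the part of depth in the differences was not tested.

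Of the 10 early osteocyte genes listed, 8 were measured, and 5 were higher than in Bglap-high cells and 0 lower. The median log2 ratio of the list was 1.58 in mutant 1 and 1.81 in mutant 2, beside -0.01 and 0 over all genes measured. Phex had 816 and 1351 CPM in the Mepe/Dmp1-high cells of mutants 1 and 2 and 3752 and 754 in those of controls 1 and 2, against 235, 356, 205 and 178 CPM in Bglap-high cells. In each library the Phex level was higher in the Mepe/Dmp1-high cells. Carrying Phex was common in Bglap-high cells too, with a UMI in 78.8% and 62.0% of those of mutants 1 and 2 and 69.9% and 81.8% of those of controls 1 and 2. Cd44, a surface receptor of hyaluronan and of the Spp1 protein, had 261, 416, 763 and 335 CPM in Mepe/Dmp1-high cells, against 23.5, 26, 23 and 27 in Bglap-high cells. Pdpn, the membrane protein needed for osteocyte dendrites, had 153, 170 and 218 CPM in mutant 1, mutant 2 and control 1 and 0 in control 2, against 26.9, 42.3, 17.9 and 18 CPM. The 2 cells of control 2 hold so few molecules that 3 counts correspond to 251 CPM, so its 0 does not bear on Pdpn. The transcription factor Irx5 was high in all 4 libraries, at 658, 1078, 763 and 1592 CPM, against 199, 256, 65.0 and 34.2 CPM. Capg, an actin-capping protein, was the fifth early gene that was higher.

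Of the 10 mature osteocyte genes, 6 were measured, of which 4 were higher and 2 lower. Sost had 20.6 and 123 CPM in the Mepe/Dmp1-high cells of mutants 1 and 2, against 0.0932 and 0.812 CPM in Bglap-high cells, and was not seen in the controls' Mepe/Dmp1-high cells. Dkk1, another secreted Wnt inhibitor, had 235, 340, 109 and 2010 CPM against 12.8, 33.5, 49.5 and 12.6 CPM. Tnfrsf11b, the decoy receptor osteoprotegerin that blocks osteoclast formation, had 244, 110, 171 and 83.8 CPM against 19.0, 4.77, 8.26 and 10.8 CPM. The fourth was Ackr3, a scavenging chemokine receptor, with 245, 310, 280 and 503 CPM against 39.7, 38.9, 7.90 and 1.80. The lower genes were Pth1r, the parathyroid hormone receptor, with 161 and 227 CPM in the Mepe/Dmp1-high cells of mutants 1 and 2 against 417 and 605, and the potassium channel gene Kcnk2. Pth1r was not lower in control 1, where it had 452 CPM against 343.

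**Figure D1:**
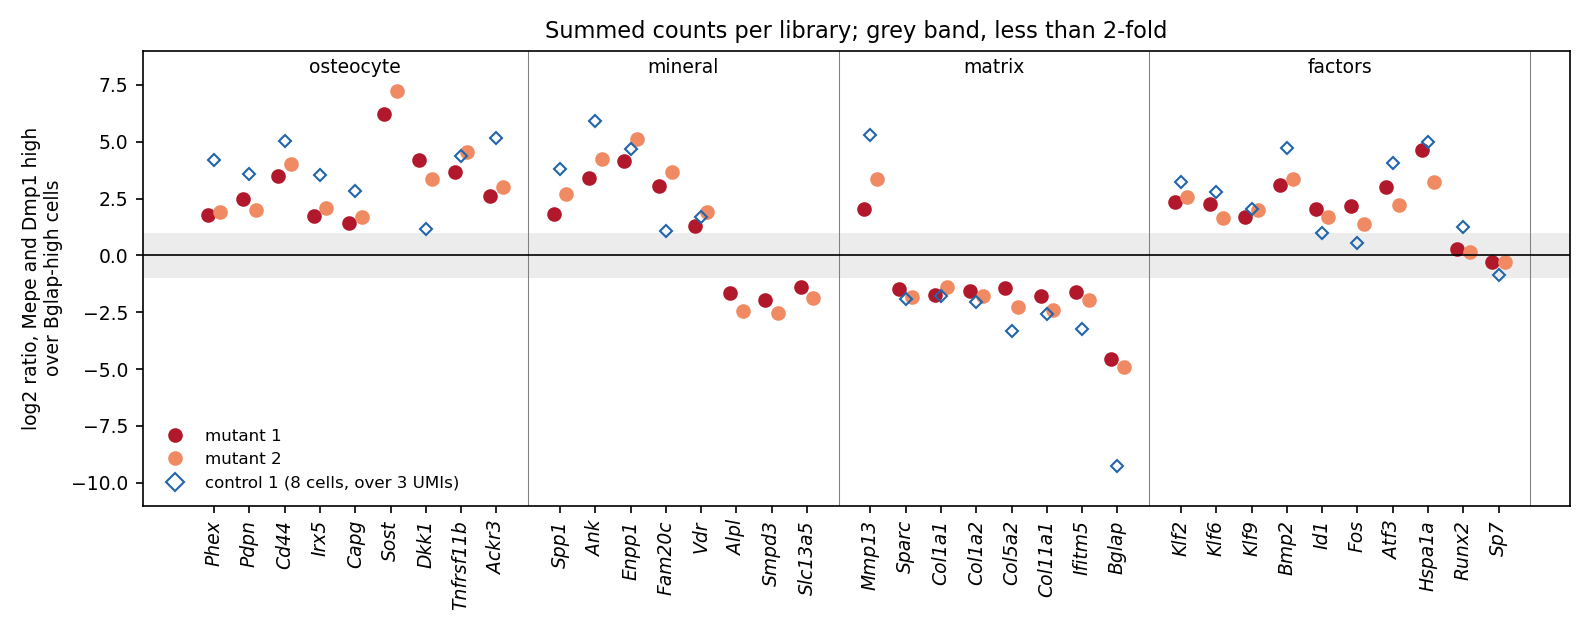
Log2 ratio of summed CPM in Mepe/Dmp1-high cells over Bglap-high cells of the same library, for genes grouped by role; filled points are the 2 mutant libraries, open diamonds are control 1 where 3 UMIs were reached, and the grey band is a difference of less than 2-fold. Osteocyte genes and the genes around pyrophosphate lie above the band, and collagens, Bglap and Alpl lie below it. Runx2 and Sp7 lie within the band in both mutant libraries. Col1a1, Sp7, Alpl and Bglap also defined the comparison cells.

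The SIBLING genes that the rule did not use divided. Spp1, or osteopontin, was higher in every library: it had 150999 and 108389 CPM in the Mepe/Dmp1-high cells of mutants 1 and 2 and 202678 and 267130 in those of controls 1 and 2, against 42776, 16618, 14331 and 17937 in Bglap-high cells. Its median per cell was 180735, 88148, 228390 and 267091 CPM, so that a large share of all RNA molecules counted in these cells came from 1 gene. A gene that takes so much of the total lowers the CPM of all others in the same cells. Ibsp, bone sialoprotein, was summed at 16944 and 9785 CPM in the Mepe/Dmp1-high cells of mutants 1 and 2 against 22232 and 13741, less than 2-fold apart. Its median per cell was 379 and 1368 CPM in mutants 1 and 2, against 16645 and 8822 CPM in Bglap-high cells, although Ibsp was also among the genes that chose the comparison cells. Control 1 went the other way, at 10658 CPM against 2723, and the 2 cells of control 2 had 0 against 1369. The upper quartile of the Mepe/Dmp1-high cells of mutants 1 and 2, 6749 and 6973 CPM, lay below their own summed level, so most of the cells were below it. Dspp, which serves dentin, had 0.807 CPM in mutant 1 and 0 in the other libraries.

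**Figure D2:**
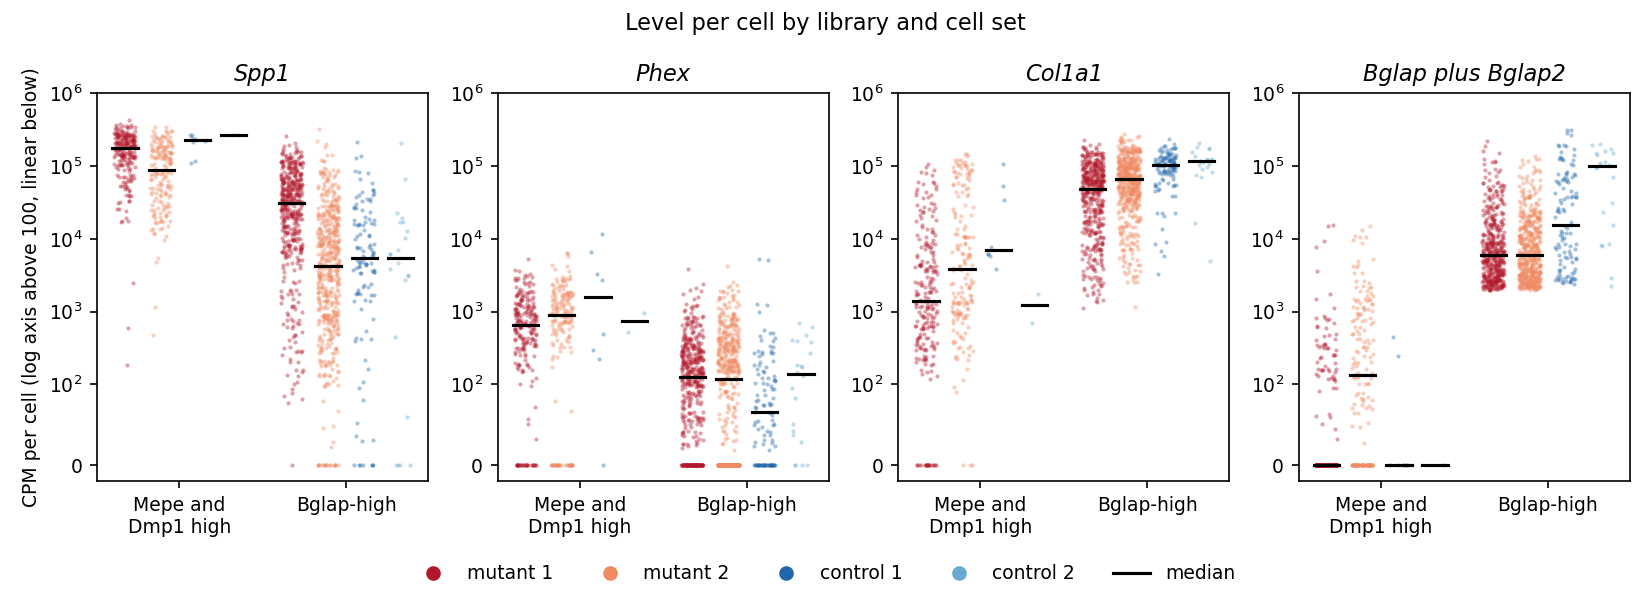
CPM per cell (log axis above 100, linear below) of Spp1, Phex, Col1a1 and Bglap plus Bglap2 in Mepe/Dmp1-high cells, left in each panel, and Bglap-high cells, with 1 point per cell, colours for the 4 libraries and bars for medians. The Spp1 medians of Mepe/Dmp1-high cells lie between 88148 and 267091 CPM and those of Bglap-high cells between 4290 and 30787 CPM. Col1a1 runs the other way. Since Col1a1 chose the comparison cells and Bglap plus Bglap2 split them, neither panel is a finding.

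Genes of phosphate and mineral handling also fell on both sides. Of 17 listed, 12 were measured, with 5 higher and 5 lower. The higher ones included both sources of pyrophosphate, an inhibitor of mineral growth: Ank, a membrane transporter, had 1223, 1857, 2694 and 3016 CPM in Mepe/Dmp1-high cells against 114, 97.4, 45.2 and 32.4, and Enpp1, which makes pyrophosphate from ATP, had 237, 300, 638 and 670 CPM against 13.4, 8.63, 25.1 and 18. Both were higher in every library. Fam20c, the kinase that phosphorylates SIBLING proteins, had 329 and 680 CPM in mutants 1 and 2 against 39.8 and 53.5. In controls 1 and 2 Fam20c was less far apart, at 77.8 and 83.8 CPM from 5 and 1 UMIs, against 36.6 and 55.8. Vdr, the vitamin D receptor, had 179 and 349 CPM in mutants 1 and 2 against 73.3 and 92.4. The lower ones serve mineral deposition or sense the cell's surroundings. Alpl, the phosphatase that breaks pyrophosphate down, had 137 and 93.7 CPM in the Mepe/Dmp1-high cells of mutants 1 and 2 and 0 in both controls, against 426, 516, 410 and 623 CPM in Bglap-high cells, though Alpl was also 1 of the 3 genes that chose the comparison cells. Smpd3, a sphingomyelinase needed for mineralization, had 121 and 63.0 CPM against 466 and 370. Slc13a5, a citrate transporter, had 65.8 and 39.8 CPM against 175 and 147. Phospho1, a matrix vesicle phosphatase, and the ion channel gene Trpv4 were the other lower genes, both at low levels.

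Genes of the osteoblast's matrix were lower together. Of 20 listed and measured, 15 were lower than in Bglap-high cells and 0 higher, with a median log2 ratio of -1.56 in mutant 1 and -1.90 in mutant 2. The list holds Col1a1, Bglap and Bglap2, which chose the comparison cells. Beyond these, Col1a2, the partner chain of type I collagen, had 15592 and 15016 CPM in the Mepe/Dmp1-high cells of mutants 1 and 2 and 21269 and 586 in those of controls 1 and 2, against 46523, 52121, 87905 and 95543. Sparc, a collagen-binding matrix protein, had 9248, 6974, 11055 and 838 CPM against 25589, 25110, 42188 and 40681. Col5a2, Col11a1, the collagen chaperone gene Serpinh1 and the osteoblast membrane gene Ifitm5 were lower as well. Against Bglap-low cells only 4 of the 20 were lower, so most of this difference was with the Bglap-high cells. Of 14 progenitor genes measured, 10 were lower and 1 higher against Bglap-high cells, with Cthrc1, a secreted protein of matrix-forming cells, at 128 and 215 CPM against 570 and 1102. The higher one was Ccn2, a matrix signalling protein, at 533 and 259 CPM against 183 and 21.6.

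The transcription factors that make osteoblasts did not follow the matrix genes. Of 15 measured, 1 was higher and 1 lower against Bglap-high cells. Runx2, the master factor of the lineage, had 196 and 196 CPM in the Mepe/Dmp1-high cells of mutants 1 and 2 against 162 and 178. Sp7 had 159 and 214 CPM against 192 and 264. Mef2c, which drives Sost in osteocytes, had 812 and 1028 CPM against 529 and 678. The one that was higher was Lef1, with 15.7 and 13.6 CPM against 3.17 and 2.94, and the lower one was Tcf7, with 14.5 and 10.2 CPM against 29.2 and 32.5; both carry Wnt signals to DNA.

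Signals to osteoclasts and enzymes that remodel matrix were next. Besides Tnfrsf11b, its ligand Tnfsf11 (RANKL), which starts osteoclast formation, was higher than in Bglap-high cells, at 38 and 25 CPM in the Mepe/Dmp1-high cells of mutants 1 and 2 against 12.2 and 3.75. Against Bglap-low cells, with 48.4 and 14.3 CPM, it was not, and fewer of the Mepe/Dmp1-high cells had a UMI, 18% and 11.3% against 32% and 15.7%. Mmp13, a collagenase of osteocytes and hypertrophic cartilage, had 7639, 6225, 9840 and 3099 CPM in Mepe/Dmp1-high cells against 1864, 615, 252 and 664, higher in each library. The acid-resorption genes Ctsk and Acp5, also expressed by osteoclasts, were lower, so of 11 measured remodelling genes 2 were higher and 5 lower. Itgb3, the chain that pairs with integrin alpha V to bind the Spp1 protein, had 92.5, 181, 140 and 503 CPM against 2.24, 2.74, 1.79 and 1.80. Gja1, the gap junction protein that links osteocyte dendrites, had 1265 and 1212 CPM in mutants 1 and 2 against 554 and 758.

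Of the BMP and TGF-beta genes, 8 of 18 measured were higher than in Bglap-high cells and 1 was lower, with a median log2 ratio of 1.0 in mutant 1 and 1.08 in mutant 2. The ligands Bmp2, Bmp4 and Bmp8a were among them, with Bmp2 at 307, 366 and 374 CPM in mutant 1, mutant 2 and control 1 and 0 in control 2, against 35.7, 35.2, 14.0 and 14.4 CPM. The target gene Id1 had 196 and 156 CPM against 47.1 and 47.9, and the secreted BMP antagonist Nog had 18.6 and 23.9 against 3.36 and 4.57. The inhibitory Smad6 was the lower one. Of 12 FGF, IGF and PTH genes, 3 were higher and 3 lower. Fgf9, a ligand, had 10.5 and 23.3 CPM against 0.0932 and 0 CPM, and Dusp6, a phosphatase induced by FGF signals, had 65.0 and 91.4 against 11.9 and 6.80.

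Among 11 KLF zinc-finger factors measured, 9 were higher than in Bglap-high cells and 0 lower, with a median log2 ratio of 1.43 in mutant 1 and 1.44 in mutant 2. Klf2, which responds to flow and mechanical strain in endothelium, had 1490, 1421, 965 and 586 CPM in Mepe/Dmp1-high cells, against 295, 240, 103 and 223. Endothelial markers were also higher in the mutants: 11 of them summed to 96.1, 155, 31.1 and 0 CPM in Mepe/Dmp1-high cells against 12, 34.7, 3.95 and 14.4, mostly from Fabp4 and Plvap, while Cdh5 and Pecam1 were at 0 by the rule. In mutant 1 the defining markers Kdr, Flt1, Tie1, Tek and Cldn5 were at 0 as well, whereas in mutant 2 none of the 11 markers was at 0. Their part in the Klf2 level was not tested. Klf4 had 580 and 583 CPM in mutants 1 and 2 against 230 and 231, but in the controls it had 187 and 83.8 against 277 and 545, so it was not higher there. Immediate early and heat shock genes behaved alike, with 9 of 16 higher and 0 lower against Bglap-high cells, and 12 of 16 higher against Bglap-low cells. Hspa1a, an inducible chaperone, had 906 and 748 CPM in mutants 1 and 2 against 36.5 and 80.7, and Atf3, a stress factor, had 299 and 234 against 36.9 and 49.8. Malat1, a nuclear noncoding RNA, had 32410, 40118, 63885 and 73965 CPM in Mepe/Dmp1-high cells, against 9051, 13448, 15365 and 21026 in Bglap-high cells. Of the proliferation genes, 3 of 18 were lower against Bglap-high cells, beside 6.63% of all genes, with a median log2 ratio of -1.55 in mutant 1 and -0.33 in mutant 2. Against Bglap-low cells 13 of 20 were lower, beside 13% of all genes, and 0 were higher in either comparison. Mki67, a marker of cycling cells, had 6.86 and 22.7 CPM against 20.6 and 65.3 in the Bglap-high cells of mutants 1 and 2.

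The genes with the largest ratio in the weaker mutant library include several that are not usually listed for bone. In order they were F13a1, Epcam, Ces1d, Steap4, Ighm, Scml4, Ctsw, Adgrg6, Gfi1, Slc30a2, Sost, Pacsin1, Cecr2, Rasd1 and Gem. F13a1, the transglutaminase subunit of clotting factor XIII, had 184, 271 and 389 CPM in mutant 1, mutant 2 and control 1 and 0 in control 2. It had a UMI in 43.7% of the Mepe/Dmp1-high cells of mutant 1 and 37.9% of those of mutant 2, against 0.685% and 0.191% of Bglap-high cells. Epcam, an epithelial adhesion molecule, had 130, 404, 46.7 and 503 CPM and a UMI in 38.7% and 56.5% of the cells of mutants 1 and 2. Ctsw, a cysteine protease known from cytotoxic lymphocytes, had 119, 111, 950 and 419 CPM and a UMI in 41.0% and 31.6%. Pacsin1, an endocytic adaptor known from neurons, had 91.6, 118, 327 and 168 CPM. Ces1d, a carboxylesterase, was concentrated in fewer cells, with a UMI in 12.2% and 11.3% of the cells of mutants 1 and 2. Each of the 15 genes had a UMI in less than 2% of the Bglap-high cells of both mutants. This did not hold in the controls, where Pacsin1 had a UMI in 38.1% and 31.8% of the Bglap-high cells of controls 1 and 2, at 32.7 and 23.4 CPM, and Adgrg6 in 6.2% of those of control 1. F13a1, Ighm, Ctsw and Gfi1 are also known from blood cells. In mutant 1, 0 of 222 Mepe/Dmp1-high cells met the blood-RNA rule, and 10 leukocyte markers summed to 19.4 CPM, against 22.2 CPM in Bglap-high cells. In mutant 2, 31 of 177 cells met it, and the same markers summed to 199 CPM against 78.3. With the blood-RNA cells of all libraries left out, all 15 genes stayed at least 2-fold higher. The part of blood-cell RNA in their levels was not tested. The 10 genes at the other end were Bglap, Bglap2, Bglap3, Dcn, Lum, Cdh15, Gstm2, Tcea3, Aspn and Fam131c. Of these, decorin (Dcn), a small proteoglycan of collagen fibrils, had 62.6 and 130 CPM in mutants 1 and 2 against 744 and 1205, and lumican (Lum) had 30.7 and 30.7 against 327 and 284. Bglap, Bglap2 and Bglap3 are near-identical neighbours between which reads may be split. RefSeq promoters matched 8 of the 15 highest genes, 2 of them with a RUNX core (25%). They matched 7 of the 10 lowest genes, also 2 with a core (28.6%), beside 16.9% of all promoters.

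**Figure D3:**
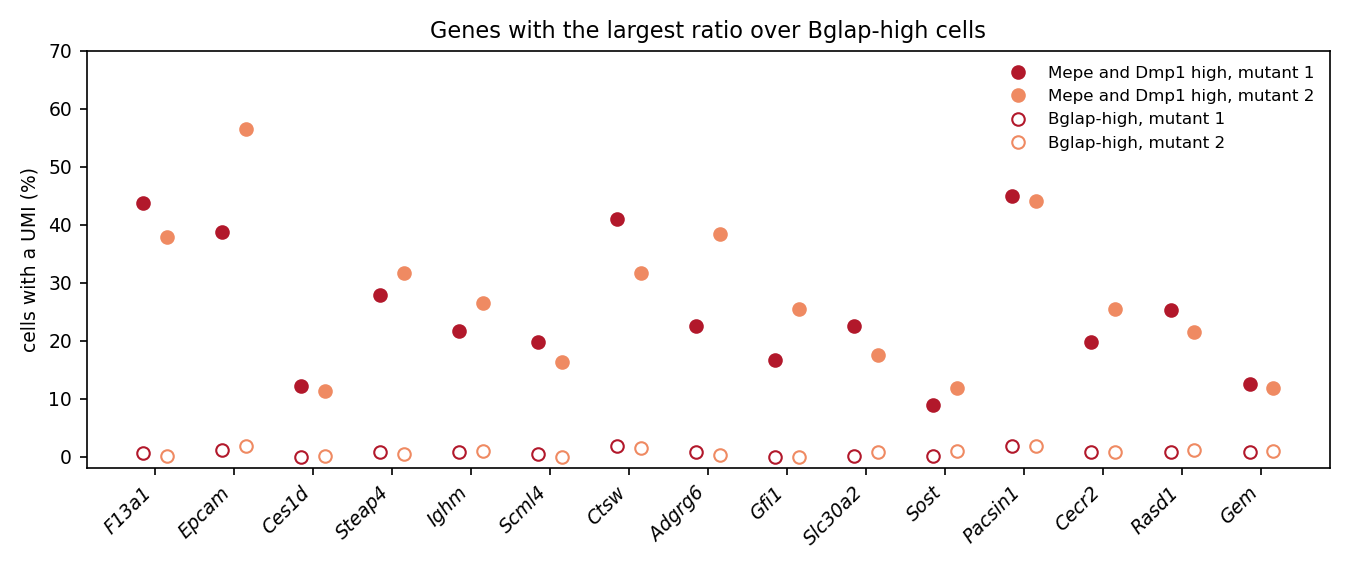
Share of cells with at least 1 UMI (%) for the 15 genes with the largest ratio, in Mepe/Dmp1-high cells (filled) and Bglap-high cells (open) of mutants 1 and 2. Mepe/Dmp1-high cells reach 56.5% for Epcam and 45% for Pacsin1, whereas Bglap-high cells stay under 2% for each gene.

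The Mepe/Dmp1-high cells varied among themselves. Mepe alone ranged from 96.1 to 82248 CPM per cell in mutant 1, with a median of 5869, and from 228 to 113989 in mutant 2, with a median of 4432. In control 1 the median was 10561 CPM, and the 2 cells of control 2 had 27008 and 5452 CPM. Across the cells of a library, those with more Mepe plus Dmp1 had more Ank (Spearman's rho 0.55 in 222 cells of mutant 1 and 0.61 in 177 of mutant 2) and more Spp1 (0.33 and 0.63), and less Ibsp (-0.32 and -0.47) and Col1a1 (-0.17 and -0.46). These cells share a library and a CPM total. The number of UMIs also moved with Mepe plus Dmp1 in mutant 1 (-0.41) but hardly in mutant 2 (0.08).

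Sost was found in few of the cells. It had a UMI in 20 of 222 cells of mutant 1 (9.01%) and 21 of 177 of mutant 2 (11.9%), against 0.228% and 0.954% of Bglap-high cells, and in 0 of 72 and 1 of 616 globin-rich cells, which should lack it. In mutant 1 the median depth of the cells with and without a Sost UMI was 7775 and 8956 UMIs, and in mutant 2 it was 7742 and 9151 UMIs. In control 1, 0 of 8 cells had one, which allows a share of up to 37.5%, and the 2 cells of control 2 set no useful limit. Summed over the cells with a Sost UMI, Mepe was at 21988 CPM in mutant 1 and 20492 in mutant 2, against 7178 and 10349 in the cells without. Dkk1 was at 1640 and 1333 CPM against 135 and 208, and Bmp2 at 699 and 778 against 279 and 312. Ibsp went the other way, at 1081 and 2549 CPM in the cells with a Sost UMI, against 18073 and 10742 in those without. The mineralization genes Alpl, at 30.4 and 19.5 CPM against 144 and 104, and Smpd3, at 0 and 24.3 against 129 and 68.2, were also lower in the cells with Sost. Hspa1a was at 3591 and 1206 CPM in these cells, against 715 and 688 in those without. Some of the Mepe/Dmp1-high cells were rich in Bglap: 5 cells of mutant 1, 21 of mutant 2 and none of the control cells had at least 2000 CPM of Bglap plus Bglap2. In mutant 2 those cells had a median of 2498 UMIs, against 10085 in the rest, and held more Sost, at 1350 CPM against 62.5 in the rest, whereas in mutant 1 they held 0 against 21.6 CPM. The cells of mutant 2 with a Sost UMI likewise had more Bglap, at 1192 CPM against 294 in those without, and those of mutant 1 had less, at 30.4 against 472. In mutant 1 both contrasts lean on the same 5 Bglap-rich cells, which held 7514 CPM Bglap against 106 in the rest. So few cells give no direction for mutant 1. The free RNA of mutant 2 held 5620 CPM Bglap, whose part in the Bglap-rich cells was not tested. Cells with at least 2000 CPM Dmp1 and no Mepe UMI, which the rule left out, numbered 64, 43, 11 and 2 in mutant 1, mutant 2, control 1 and control 2. Against those, the Mepe/Dmp1-high cells of mutants 1 and 2 had less Col1a1, at 17264 and 24991 CPM against 52106 and 52048, and more Ank, at 1223 and 1857 CPM against 621 and 381.

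**Figure D4:**
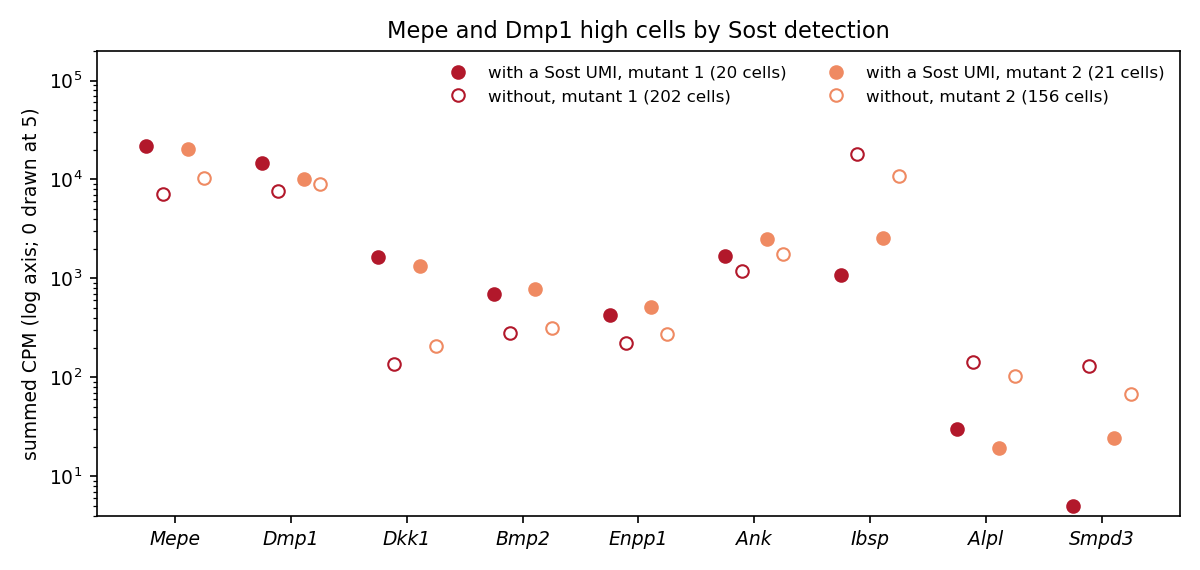
Summed CPM (log axis, 0 drawn at 5) of 9 genes in Mepe/Dmp1-high cells with a Sost UMI (filled) and without one (open), in mutants 1 and 2. Mepe, Dkk1 and Bmp2 are higher and Ibsp, Alpl and Smpd3 lower in the cells with Sost, in both libraries.

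By genotype, the Mepe/Dmp1-high cells made up a larger share of bone cells in both mutant libraries than in either control library. Of all bone cells, defined as these cells plus the Bglap-high and Bglap-low cells, they were 11.9% in mutant 1 (222 of 1860, exact 95% binomial interval 10.5 to 13.5%) and 13.1% in mutant 2 (177 of 1351, 11.3 to 15%), against 2.82% in control 1 (8 of 284, 1.22 to 5.47%) and 5.41% in control 2 (2 of 37, 0.662 to 18.2%). The groups did not overlap, but the interval of control 2 spans both mutant values. The mutant mean was 12.5% and the control mean 4.11%, a difference of 8.41 percentage points, with p = 0.333 in a two-sided exact permutation test, the smallest p that 2 against 2 libraries allow. Within the sets processed together, the difference was 9.12 points between mutant 1 and control 1 and 7.70 points between mutant 2 and control 2. Intervals cover counting error only. The rule left out cells with at least 2000 CPM Dmp1 and no Mepe UMI. There were 64 and 43 such cells in mutants 1 and 2, beside 222 and 177 kept. Controls 1 and 2 had 11 and 2, beside 8 and 2 kept. The part of Mepe detection in the share difference was not tested. Of the cells kept, 95 and 101 in mutants 1 and 2 and 6 and 0 in controls 1 and 2 met the bone rule. Since the sort also kept other cells, the share of all kept cells, 8.45% and 3.86% in mutants 1 and 2 against 0.138% and 0.0550% in controls 1 and 2, depends on what else was caught. The rule needs at least 3 UMIs of 2 genes, and after thinning every cell to 5000 UMIs the shares were 9.01% and 10.2% in mutants 1 and 2 against 2.8% and 5% in controls 1 and 2, with 40, 57, 2 and 0 Mepe/Dmp1-high cells too shallow to be used.

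**Figure D5:**
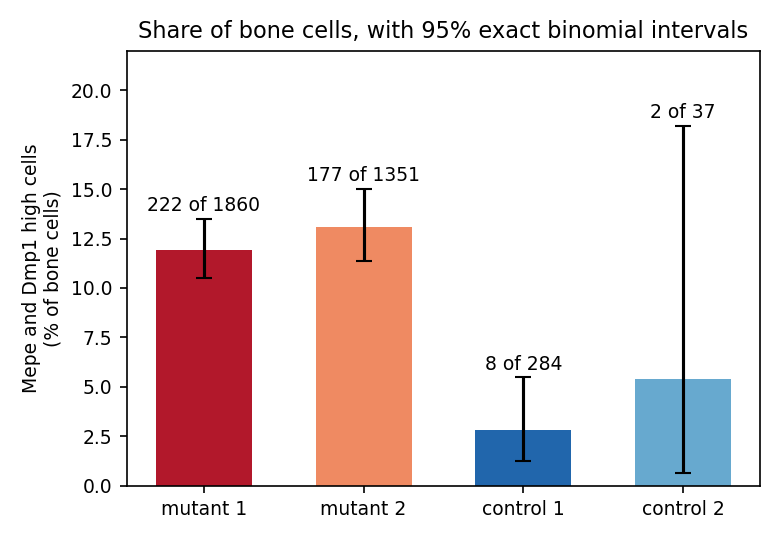
Mepe/Dmp1-high cells as a share of bone cells (%) in each library, with exact 95% binomial intervals and cell numbers above the bars. The mutant bars are at 11.9% and 13.1%, above the control bars at 2.82% and 5.41%, and the control 2 interval reaches 18.2% from 37 cells.

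Outside the Mepe/Dmp1-high cells, Mepe itself was detected in mutant Bglap-high cells and not in control Bglap-high cells. A Mepe UMI was present in 25.6% of Bglap-high cells of mutant 1 and 15.8% of those of mutant 2, against 0 of 113 in control 1, which allows up to 2.65%, and 0 of 22 in control 2, which allows up to 13.6%. In Bglap-low cells it was present in 34.2% and 21.8% in mutants 1 and 2, against 11 of 163 (6.75%) in control 1 and 0 of 13 in control 2, so other control bone cells did hold Mepe. With each cell thinned to 1000 UMIs the shares in Bglap-high cells were 4.11% and 4.39% in mutants 1 and 2 and 0 in both controls. In globin-rich cells, which should lack the gene, a Mepe UMI was found in 0 of 72 and 7.14% of cells of mutants 1 and 2, with median depths of 10579 and 12701 UMIs, and in 0.157% and 0 of controls 1 and 2. For mutant 1 the 0 of 72 allows up to 4.17%, and its free RNA could not be measured. Free RNA held 515 CPM Mepe in mutant 2, against 8.78 and 1.12 in controls 1 and 2. The part of free RNA in the mutant shares was not tested. Dmp1 had no such split, with a UMI in 53% and 42% of Bglap-high cells of mutants 1 and 2 against 52.2% and 36.4% in controls 1 and 2. Genes of the selection rule were left out of the genotype tests, so these levels are a description.

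Within the Mepe/Dmp1-high cells no gene differed between genotypes past the threshold. Counts were summed per library and fitted with edgeR's quasi-likelihood test, with the processing set as a term, over 7028 genes. At a Benjamini-Hochberg adjusted p of 0.05, 0 genes were higher (0%) and 0 lower (0%). The smallest adjusted p was 0.718, and 161 genes had an unadjusted p under 0.05. DESeq2 called 0 higher and 3 lower, namely Spp1, 2810459M11Rik and Map3k14, and edgeR without control 2 called 1 lower, Eln. The control sums held 64225 and 11938 UMIs, against 2477055 and 1761078 in the mutants, so that 3 counts correspond to 46.7 CPM in control 1 and 251 CPM in control 2 and most genes could not be seen there. The median log2 fold change of all genes was 0.55. A gene can enter this fit through the mutant sums alone, so no count of directions is given for these 161 genes or for a gene list. No gene of the 24 role lists passed.

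None of the genes named here passed the threshold in edgeR. Fam20c, Egr1 and Car3 were named for a small p in this fit, so their separation between genotypes is no finding. How many of all genes have levels that separate between the groups was not counted. Spp1 had 150999 and 108389 CPM in mutants 1 and 2, against 202678 and 267130 in controls 1 and 2, a log2 fold change of -0.30 with a standard error of 4.28 and an adjusted p of 0.996 in edgeR. The groups did not overlap, and DESeq2 gave -0.40 with an adjusted p of 0.00754. Phex, at 816 and 1351 CPM against 3752 and 754, had a log2 fold change of -0.32 (SE 1.46, adjusted p 0.986 in edgeR). Ank had 1223 and 1857 CPM against 2694 and 3016 (log2 fold change -0.37, SE 0.86, adjusted p 0.962 in edgeR). For Ank, too, the groups did not overlap. Without control 1 the fitted signs of Spp1, Phex and Ank turned, to 0.22, 1.73 and 0.24. That fit moved the median of all genes to 6.66, so it gives no steady baseline for single genes. By CPM against control 2 alone, Spp1 and Ank were lower in both mutants. Phex in control 2 rests on 9 UMIs, so its 754 CPM cannot be told from the 816 CPM of mutant 1. In control 1 the median of Phex per cell was 1607 CPM and the highest value 11625. Without mutant 2 the value of Spp1 was 0.04, with a median of 0.17. Fam20c had 329 and 680 CPM in mutants 1 and 2, against 77.8 and 83.8 CPM in controls 1 and 2, which rest on 5 and 1 UMIs (log2 fold change 2.83, SE 0.79, adjusted p 0.718 in edgeR). Egr1, an immediate early factor, had 494 and 566 CPM against 62.3 and 251 CPM from 4 and 3 UMIs (2.69, SE 0.71, adjusted p 0.718 in edgeR). Car3, a carbonic anhydrase, had 439 and 358 CPM against 15.6 and 0 CPM from 1 and 0 UMIs (5.34, SE 1.02, adjusted p 0.718 in edgeR). In control 2, 3 counts correspond to 251 CPM, so its 0 says little.

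Whether the genotype difference in the Mepe/Dmp1-high cells departed from that in Bglap-high cells was tested by an interaction term with each library as a block. Over 9981 genes edgeR called 0 higher (0%) and 0 lower (0%), with a smallest adjusted p of 0.327 and 1364 genes at an unadjusted p under 0.05. The median of this term over all genes was 1.08 on the log2 scale, and 0.65 with another scaling (RLE), so single values should be read against that shift. The result depended on the 10 control cells: without control 1 the same fit called 299 higher and 6 lower genes from the 2 cells of control 2, with a median of the term of 7.42 over all genes, and without control 2 it called 21 higher and 5 lower.

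Mettl3 itself had 11 and 5 UMIs in the Mepe/Dmp1-high cells of mutants 1 and 2, or 4.44 and 2.84 CPM, and 0 in those of both controls. There 3 counts correspond to 46.7 CPM in control 1 and 251 CPM in control 2, so the control zeros do not bear on Mettl3. In Bglap-high cells it had 3.54 and 4.06 CPM in mutants 1 and 2 against 6.1 and 3.6 CPM in controls 1 and 2 (log2 fold change -0.64, SE 0.43, adjusted p 0.404 in edgeR). The levels overlapped. Counts come from the 3' ends of transcripts, and whether the floxed part lies there is not stated, so they do not check the deletion. Of 18 genes measured that write, erase or read m6A, 1 was higher in the Mepe/Dmp1-high cells of mutants 1 and 2 than in Bglap-high cells, namely the reader Igf2bp2, at 50.1 and 56.2 CPM against 16.8 and 17.9.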

How the data were processed

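Single-cell RNA was counted in 4 libraries, 2 mutant and 2 control. The deposited files hold UMI counts per gene and barcode. The submitters' processing notes name mm10 and Cell Ranger, version 5.0.1 for mutant 1 and control 1 and version 6.1.2 for mutant 2 and control 2, while the file headers name 5.0.1 for mutant 1 and version 4 for the other 3. These sets coincide with the replicate numbers, which follow accession order, so the set term is also the replicate block. Deviations of same-numbered libraries from their group means correlated at r = 0.23 over 2288 genes in the Mepe/Dmp1-high cells, which is a hint and no sign of shared animals.

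Cells were filtered and selected as in the report; no doublet was removed in the main result, although Scrublet (Scanpy 1.11.5) marked 6 Mepe/Dmp1-high cells of mutant 1 and 1 of mutant 2. Counts were summed per library and cell set, and CPM are of these sums unless given per cell. Genotype was tested with edgeR 4.0.16 (TMM, filterByExpr, quasi-likelihood, 1 residual degree of freedom, adjusted p threshold 0.05) in R 4.3.3, with limma 3.58.1, and DESeq2 1.42.0 as an alternative. The interaction fit had 2 residual degrees of freedom. Shares were compared by an exact permutation test (SciPy 1.17.1). Other tools were Python 3.11.15, NumPy 2.4.6, pandas 2.3.3 and matplotlib 3.10.9. The scripts were tested on simulated counts.

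Folds against a set with fewer than 3 counts were computed with 3 counts. Named genes were those of the role lists (up to 6 each, by difference or p), the 15 highest and 10 lowest ratios over Bglap-high cells in the weaker mutant library, genes past the threshold, and Mettl3; Malat1, Eln, 2810459M11Rik and Map3k14 were named after their values were seen. Members and lists were chosen with earlier results of these data known. Alternatives varied the Mepe plus Dmp1 threshold, doublets, cell filters, comparison cells, scaling, low-count filter, set term and each library. P-values measure only the spread between these 4 libraries.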

Additional observations from a re-analysis of the deposited data

How the results depend on the processing

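The share difference stayed above 0 in every alternative, from 5.69 points with cells thinned to 5000 UMIs to 10.3 points at 2000 UMIs and 5% mitochondrial UMIs, and from 7.11 to 9.70 points with a library left out. With blood-RNA cells left out, an alternative chosen after seeing the data, it was 8.19 points.

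Against Bglap-high cells, 825 genes were higher, and 825 to 1359 with a library left out. Lower genes numbered 583, but 234 at a threshold of 1000 CPM, 946 at 4000 CPM, 1302 against Bglap-low cells and 583 to 1155 with a library left out; dropping a mutant library relaxes the rule to 1 library. Leaving out a library could not remove a gene, since the controls were not in that count and dropping a mutant library only relaxes the rule. In the other alternatives all 15 named higher genes stayed higher, and so did the 10 lower ones stay lower except against Bglap-low cells. There 7 stayed lower, and Bglap reached 0.12 on the log2 scale.

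Lower genotype genes numbered 3 with DESeq2 and 0 to 1 with a library left out. The interaction gave 0 to 299 higher and 0 to 6 lower genes with a library left out, 1 higher (Pacsin1) and 1 lower (Eln) under the stricter cell filter, and 1 lower (Eln) without doublets. The causes were not tested. With a library left out, the log2 fold change of Spp1 ran from -0.77 to 0.22, that of Phex from -1.72 to 1.73 and that of Ank from -0.72 to 0.24, with signs turned without control 1, where the median of all genes was 6.66, and, for Spp1, also without mutant 2 (0.04). A fit with 1 library in a group assumes that it varies like the others. Without the replicate block 0 genes were higher, 0 lower and 943 at an unadjusted p under 0.05, against 161 with it. The 10 control cells limit every genotype result on levels.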
